A study of Mus musculus with 6 samples.

Results

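The genes described here encode parts of the dystrophin glycoprotein complex in the left ventricle of mice: Dmd, Utrn, Dag1, Sgca, Sgcb, Sgcd, Dtna and Sspn. They were picked by name, as components of the complex, with earlier results of these data known, and the rule that defines them uses no measured value. All 8 were among the 54532 genes of the count table, and all 8 had enough reads to enter the test, which covered 14774 genes.

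The libraries compared hearts with and without extra HINT2, a mitochondrial nucleotide-binding protein, after pressure overload by aortic banding (AB), a surgical narrowing of the aorta. Transgenic (TG) hearts carried the genotype label HINT2CTG-Myh6Cre, and non-transgenic (NTG) hearts were labelled C57BL/6J. Each group had 3 libraries from left ventricle, and every heart had been banded. The mice were males operated on at 8 to 10 weeks of age and sampled 4 weeks after AB. In TG mice, human HINT2 sat behind a CAG promoter and a loxP-flanked stop cassette, and a tamoxifen-inducible Cre driven by the Myh6 promoter limited its expression to cardiomyocytes. Whether NTG mice carried Cre or received tamoxifen was not given, and no library from an unbanded heart was analysed here. The labels do not say how the animals were distributed over litters or days, so the p-values rest on the differences among these 6 libraries alone.

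The dystrophin glycoprotein complex spans the plasma membrane of muscle cells and ties the actin cytoskeleton to the laminin of the basement membrane. Dystrophin, or its autosomal homologue utrophin, binds actin on the inside and the beta subunit of dystroglycan at the membrane, while the alpha subunit of dystroglycan binds laminin outside. The sarcoglycans and sarcospan form a subcomplex that stabilises this axis, and dystrobrevins and syntrophins attach signalling proteins to it. In the heart, loss of dystrophin or of delta-sarcoglycan leaves cardiomyocytes open to membrane damage and leads to dilated cardiomyopathy.

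Total counts lay between 14863568 and 17581220 per library, and the 8 genes had 268 to 7791 counts in any 1 library. Levels are given as CPM (counts scaled to a common library total), scaled by the trimmed mean of M values (TMM). Hint2 itself, counted at the mouse gene, had 545 and 559 counts in NTG 2 and NTG 3, 793, 828 and 859 in the TG libraries, and 12 in the library labelled NTG 1, or 0.8192 CPM. This last value goes against the label of an unmodified heart, and the library also lay nearer to TG 2 than to the other NTG libraries on the first principal component (-5.079 against -10.7 for TG 2, 29.31 and 55.68 for NTG 3 and NTG 2). Whether reads of the human transgene were counted at the mouse gene was not given. The log2 fold changes of the 8 genes are therefore given with and without the library labelled NTG 1, and those of other genes only in part.

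Between TG and NTG hearts after AB, the genes of the complex differed in both directions, and no difference passed the adjusted threshold. The mean of Dmd was 16.9% lower and Sgcd 24.5% lower in TG, Sgca was 28.0% higher, and the other 5 genes differed by at most 10.5% between the group means. None of the 8 passed the threshold of an adjusted p under 0.05 with a log2 fold change over 0.5 in size in edgeR's quasi-likelihood test, against a background of 0.0% of the 14774 genes tested. At an unadjusted p under 0.05, 2 of the 8 were lower in TG (Dmd and Sgcd) and 0 were higher, where 9.76% of all genes were lower and 8.83% were higher. In 2 of the 8 every TG library lay below every NTG library and in 1 (Dag1) every TG library lay above, where 12.3% and 11.2% of all genes did so. Over the 8 genes the median log2 fold change was 0.092, and over all genes tested it was -0.0081.

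**Figure D1:**
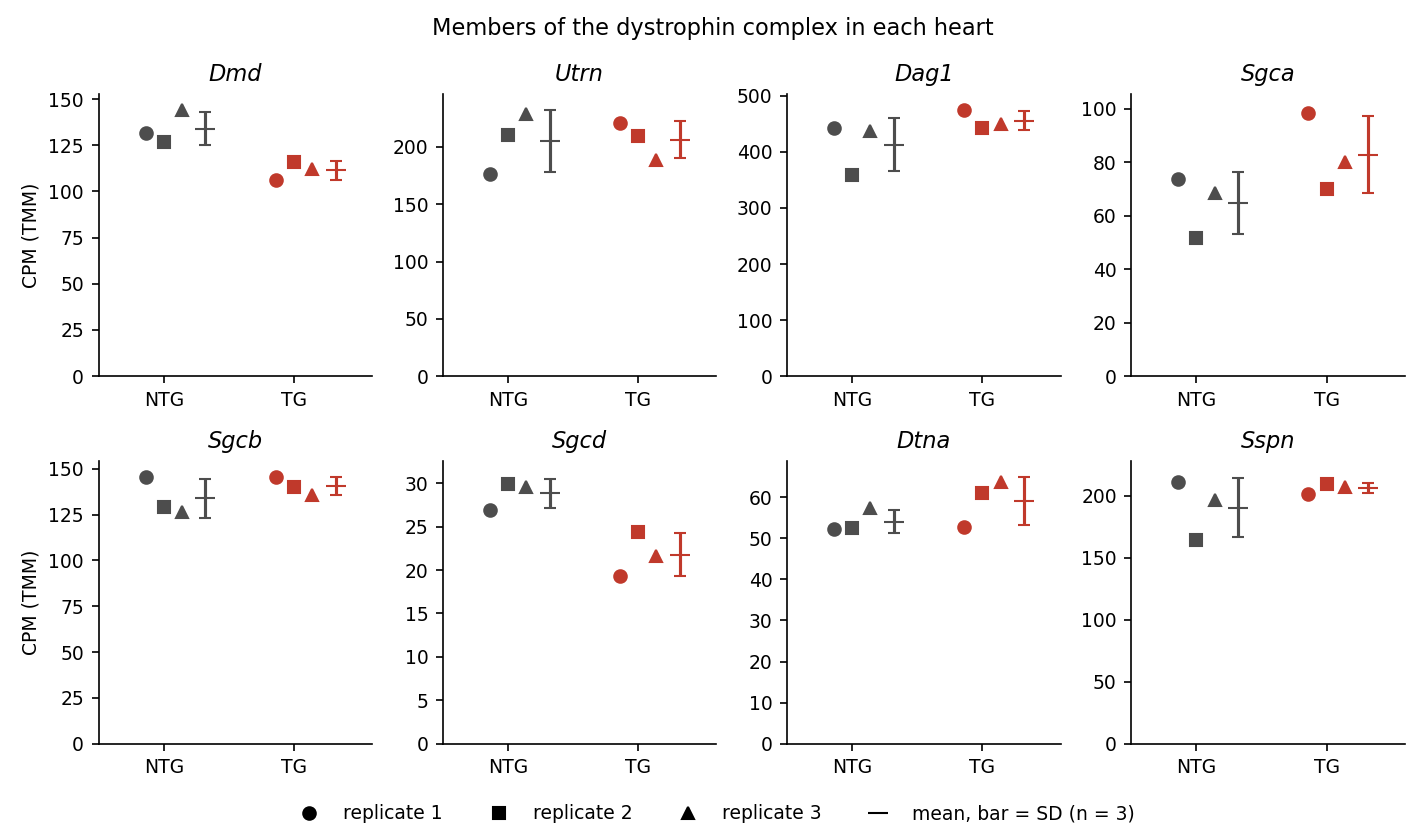
CPM (TMM-scaled, vertical axis from 0) of the 8 genes in each of the 3 NTG and 3 TG hearts; symbols mark the replicate number and bars the mean and SD. Dmd and Sgcd showed no overlap between the groups, with TG below NTG, while Utrn, Sgca, Sgcb, Dtna and Sspn overlapped and the lowest TG library of Dag1 lay just above the highest NTG library.

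Dystrophin, encoded by Dmd on chromosome X (82948870 to 85206141, plus strand, GRCm38), is the long rod that anchors the complex to actin. Its level was 131.7, 126.5 and 143.8 CPM in the NTG libraries and 105.9, 115.9 and 112.3 CPM in the TG libraries. The highest TG library was below the lowest NTG library, so the groups did not overlap. The group means were 134 ± 8.87 CPM (SD, n = 3) in NTG and 111 ± 5.06 CPM (SD, n = 3) in TG. The log2 fold change was -0.27 (SE 0.09, 95% interval -0.48 to -0.05), with an adjusted p of 0.215 in edgeR and 0.165 in DESeq2. The fit that omitted the library labelled NTG 1 gave -0.28, with an adjusted p of 0.132 in edgeR. The annotation gives Dmd 14 transcripts, of which 3 are coding, and the gene count pools them, so the full-length muscle form and the short forms from internal promoters cannot be told apart.

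Dmd also had the longest exon length among the 8 genes, 23801 bases, and across all genes tested the group difference varied with length. The median log2 fold change was 0.15 over the 919 genes up to 1 kb, -0.058 over the 2126 genes of 8 to 16 kb, and -0.044 over the 285 longer genes, where Dmd belongs. In a fit with an offset for length, the log2 fold change of Dmd was -0.21 (unadjusted p = 0.0604 in edgeR), and that of Sgcd, of 8257 bases, was -0.34 (unadjusted p = 0.0132 in edgeR). The part of gene length in these differences was not tested further.

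Because Dmd, Sgca and Sgcd had the largest differences between the group means, the 250 bases before their RefSeq starts are shown with their elements, a choice made after the values were seen. For Dmd the start shown is the upstream one of the full-length form (chrX:82948620-82948869, plus strand, GRCm38.p6). Capitals mark E-boxes (CANNTG, the letters read by basic helix-loop-helix factors) and a CArG box, the element of serum response factor; both are palindromic as searched, so each strand gives the same matches, and no match overlaps another.
Dmd: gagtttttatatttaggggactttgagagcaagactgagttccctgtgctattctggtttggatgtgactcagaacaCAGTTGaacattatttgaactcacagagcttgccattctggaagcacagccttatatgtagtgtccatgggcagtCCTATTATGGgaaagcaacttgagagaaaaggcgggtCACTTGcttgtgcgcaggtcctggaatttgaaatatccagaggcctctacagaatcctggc

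The Dmd window held 2 E-boxes, starting 173 and 61 bases before the start, and 1 CArG box 98 bases before it. Of all 32851 promoter windows of the same length in the table, 66.2% held an E-box and 1.47% a CArG box. The second RefSeq start of Dmd, inside the gene, held 0 of either. Among the 10 windows read, which belong to 7 of the 8 genes, the Dmd window was the only one with a CArG box. A match of letters describes the window only.

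Utrophin, the homologue of dystrophin that can take its place at the membrane, is encoded by Utrn (chromosome 10, 12382188 to 12869365, minus strand). The NTG libraries had 175.9, 210.6 and 228.8 CPM and the TG libraries 220.7, 209.3 and 188.6 CPM. Both the lowest and the highest library were NTG, and all 3 TG libraries lay between them. The log2 fold change was 0.0074 (SE 0.13, 95% interval -0.28 to 0.30; adjusted p = 0.982 in edgeR), so these libraries leave a change of about that interval in either direction undetected. Without the library labelled NTG 1, which had the lowest Utrn level, it was -0.093, and it was -0.081 when libraries were scaled by their size alone.

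Alpha-dystrobrevin, encoded by Dtna, binds dystrophin and carries syntrophins. Its level was 52.36, 52.57 and 57.27 CPM in NTG and 52.65, 60.94 and 63.71 CPM in TG. TG 1 lay among the NTG libraries, and the other TG libraries lay above them. The log2 fold change was 0.13 (SE 0.10, 95% interval -0.10 to 0.36; adjusted p = 0.501 in edgeR). It was 0.20 without TG 1 and 0.071 without TG 3. Of the exon bases of Dtna, 90 (0.532%) are shared with Gm47898 on the opposite strand, and whether the counting used strand was not given.

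The ratio of members within a heart cancels the depth and scaling of that library. The ratio of Utrn to Dmd counts was 1.34, 1.66 and 1.59 in NTG hearts and 2.08, 1.81 and 1.68 in TG hearts. All 3 TG hearts lay above all 3 NTG hearts, although TG 3 and NTG 2 differed by little. On the log2 scale the ratio was 0.279 higher in TG (p = 0.1 by a two-sided exact permutation of the libraries, which cannot go lower with 3 against 3). The ratio of Dtna to Dmd was 0.398, 0.415 and 0.398 in NTG and 0.497, 0.526 and 0.567 in TG, again without overlap. Its log2 difference was 0.391 (p = 0.1 by the same exact permutation). Both ratios share Dmd as the divisor, whose own level did not overlap between the groups. They are therefore not separate evidence from each other or from the Dmd difference. The log2 fold change of Utrn alone was 0.0074 and that of Dmd alone -0.27. Leaving out each library in turn gave log2 differences of 0.185 (without the library labelled NTG 1) to 0.349 for Utrn to Dmd and 0.341 to 0.436 for Dtna to Dmd.

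**Figure D2:**
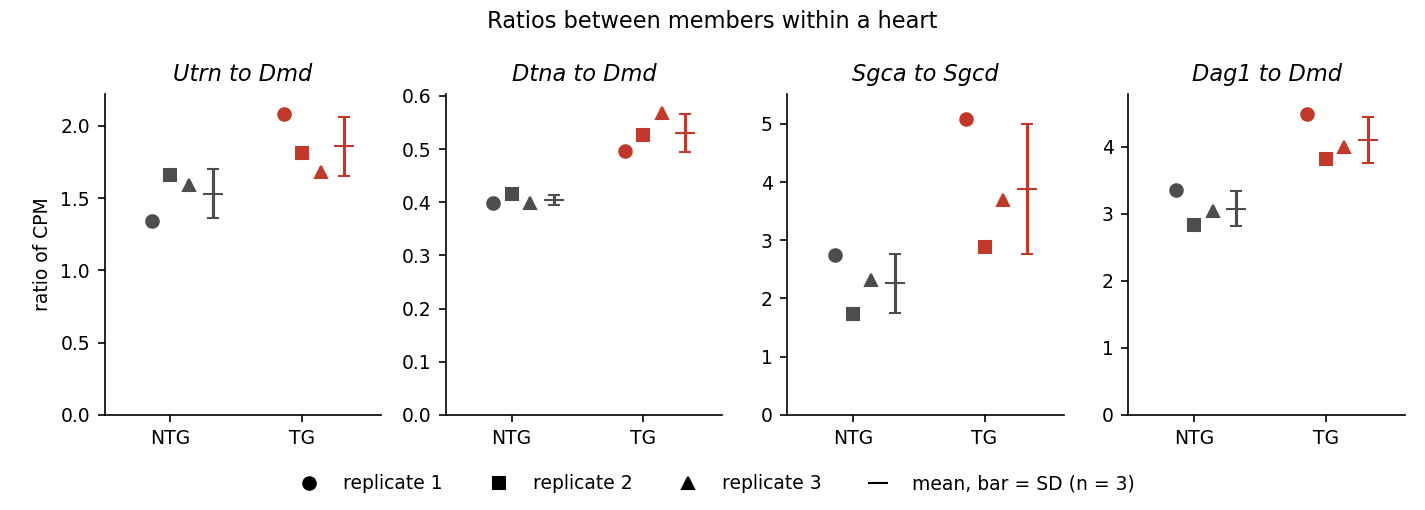
Ratio of CPM between pairs of members in each heart (vertical axis from 0), with symbols for the replicate number and bars for the mean and SD of 3 hearts. In all 4 ratios the 3 TG hearts sit above the 3 NTG hearts. Sgca to Sgcd and Dag1 to Dmd were chosen for display after their values were seen, and 3 of the 4 ratios share Dmd. The divisors, Dmd and Sgcd, were lower in TG without overlap by themselves.

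Dystroglycan, encoded by Dag1 (chromosome 9, 108204634 to 108263958, minus strand), is the laminin receptor at the core of the complex and is cut into its alpha and beta subunits after translation. It had the highest level of the 8 genes, in CPM and also per length. The NTG libraries had 442.1, 357.9 and 437.1 CPM and the TG libraries 474.3, 442.9 and 449.5 CPM. The groups did not overlap, but the gap was that between 442.1 CPM in the library labelled NTG 1 and 442.9 CPM in TG 2. The means were 412 ± 47.2 CPM (SD, n = 3) in NTG and 456 ± 16.6 CPM (SD, n = 3) in TG. The log2 fold change was 0.14 (SE 0.13, 95% interval -0.15 to 0.43; adjusted p = 0.553 in edgeR). It was 0.05 in the lowest of the 6 fits that each left out 1 library, the fit without NTG 2.

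The sarcoglycans are single-pass membrane glycoproteins that assemble with each other in the membrane of striated muscle. Alpha-sarcoglycan (Sgca) and delta-sarcoglycan (Sgcd) differed in opposite directions. Sgca, on chromosome 11 (94962791 to 94976327, minus strand), had 73.86, 51.72 and 68.44 CPM in NTG and 98.3, 70.04 and 80.0 CPM in TG. TG 1 and TG 3 were the highest, and TG 2 lay below the library labelled NTG 1. The means were 64.7 ± 11.5 CPM (SD, n = 3) in NTG and 82.8 ± 14.3 CPM (SD, n = 3) in TG, and the log2 fold change was 0.36 (SE 0.17, 95% interval -0.03 to 0.75; adjusted p = 0.298 in edgeR). Without the library labelled NTG 1 it was 0.46 (adjusted p = 0.15 in edgeR), without TG 1 it was 0.21 and without NTG 2 it was 0.22.

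Sgcd, on the same chromosome (46896253 to 47988969, minus strand), had 26.96, 29.95 and 29.56 CPM in NTG and 19.33, 24.33 and 21.67 CPM in TG. Every TG library was lower than every NTG library. The means were 28.8 ± 1.62 CPM (SD, n = 3) and 21.8 ± 2.5 CPM (SD, n = 3). The log2 fold change was -0.40 (SE 0.12, 95% interval -0.67 to -0.13), with an adjusted p of 0.196 in edgeR and 0.104 in DESeq2. Without the library labelled NTG 1 it was -0.45 (adjusted p = 0.0705 in edgeR), and omitting each of the 6 libraries in turn gave -0.49 to -0.33. Sgcd was lower in TG at an unadjusted p under 0.05 in 17 of 17 alternative fits, Dmd in 12 of 17, and Sgca was higher in 5 of 17.

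The 250 bases before the RefSeq starts of both genes are given on the minus strand, for Sgca at chr11:94976328-94976577 and for Sgcd at chr11:47379326-47379575 (GRCm38.p6), with E-boxes in capitals as above.
Sgca: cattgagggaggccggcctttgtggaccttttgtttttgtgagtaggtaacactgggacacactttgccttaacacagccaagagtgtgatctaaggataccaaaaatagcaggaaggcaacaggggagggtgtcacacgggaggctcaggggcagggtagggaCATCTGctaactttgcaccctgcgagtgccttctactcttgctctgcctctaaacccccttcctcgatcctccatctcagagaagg
Sgcd: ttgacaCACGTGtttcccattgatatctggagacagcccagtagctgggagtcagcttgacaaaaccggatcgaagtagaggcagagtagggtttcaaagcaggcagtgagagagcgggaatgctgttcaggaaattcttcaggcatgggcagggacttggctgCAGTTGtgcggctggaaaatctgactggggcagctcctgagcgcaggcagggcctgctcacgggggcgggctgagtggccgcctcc

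Sgca had 1 E-box, 86 bases before the start, and Sgcd had 2, at 244 and 86 bases. Neither window held a CArG box. The annotation also gives Sgcd other starts, so the window stands for 1 of its promoters.

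Sgcb, encoding beta-sarcoglycan (chromosome 5, 73632749 to 73647790, minus strand), had 145.7, 129.1 and 126.6 CPM in NTG and 145.8, 139.9 and 135.8 CPM in TG. The groups overlapped, and the log2 fold change was 0.07 (SE 0.10, 95% interval -0.15 to 0.29; adjusted p = 0.712 in edgeR). Leaving out 1 library moved it between 0.031 (NTG 3) and 0.13 (the library labelled NTG 1). Sgce, encoding epsilon-sarcoglycan, the close relative of alpha-sarcoglycan outside the 8 genes, had a log2 fold change of -0.21 (SE 0.12; adjusted p = 0.395 in edgeR), which was -0.34 without TG 2 and -0.13 without TG 1. The ratio of Sgca to Sgcd, which was chosen after the values were seen and was not tested, was 2.74, 1.73 and 2.32 in NTG and 5.09, 2.88 and 3.69 in TG.

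Sarcospan, the tetraspan-like protein that binds the sarcoglycans, is encoded by Sspn (chromosome 6, 145931641 to 145965223, plus strand). It had 211.3, 164.0 and 196.2 CPM in NTG and 201.6, 209.7 and 207.4 CPM in TG. The library labelled NTG 1 was the highest of all 6 and NTG 2 the lowest, and the TG libraries lay close together. The log2 fold change was 0.11 (SE 0.12, 95% interval -0.15 to 0.38; adjusted p = 0.611 in edgeR). Omitting NTG 2 gave 0.016 and omitting the library labelled NTG 1 gave 0.19. For Dag1 and Dtna, omitting the latter gave 0.20 and 0.10. Sspn shares 69 exon bases (1.38%) with the opposite-strand gene Sspnos.

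The fitted differences of cardiomyocyte, fibroblast and macrophage markers each lay in 1 direction, although none passed the adjusted threshold in edgeR with all 6 libraries. DESeq2 called 3 of the fibroblast markers lower (Col1a1, Col1a2 and Dcn), and edgeR without the library labelled NTG 1 called Pln higher and Col3a1, Csf1r and Mrc1 lower, where these fits called 3.95% and 5.52% of all genes. At an unadjusted p under 0.05, 8.83% of all genes were higher and 9.76% lower, against which the counts of markers are to be read. The summed level of 10 cardiomyocyte markers was 25240 to 40650 CPM in NTG and 39660 to 48250 CPM in TG, and the 10 fitted differences were all higher in TG (median log2 fold change 0.41, or 0.24 without NTG 2; 2 with an unadjusted p under 0.05). The sum of 8 fibroblast markers was 3939 to 7485 CPM in NTG and 2308 to 3488 CPM in TG, all 8 fitted lower (median -0.52, 5 with an unadjusted p under 0.05), although 1 of the 8 was fitted higher without NTG 2 and without TG 1. The sum of 8 macrophage markers was 936.3 to 1714 CPM and 689.4 to 985 CPM, all 8 fitted lower (median -0.58, 3 with an unadjusted p under 0.05). Without NTG 2, which had the highest macrophage sum, the median was -0.22 and 2 of the 8 were fitted higher. The fibroblast sums did not overlap between the groups, whereas the cardiomyocyte and macrophage sums did. None of these markers was at 0 in all libraries. The sums of 8 endothelial markers (2331 to 2704 CPM and 2390 to 2628 CPM) and of 8 smooth muscle and pericyte markers (1247 to 1592 CPM and 1328 to 1619 CPM) overlapped too. Of the endothelial markers, 4 were fitted higher and 4 lower (median log2 fold change 0.015). At an unadjusted p under 0.05 in edgeR, 2 of them (Kdr and Egfl7) were higher and 0 lower. Of the smooth muscle and pericyte markers, most of whose sum was the pericyte gene Rgs5, 4 were fitted higher and 4 lower (median 0.0082). By the same unadjusted p, 3 (Acta2, Myh11 and Cnn1) were higher and 0 lower. These 3 did not overlap between the groups (11.2% of all genes lay higher without overlap), and DESeq2 called 2 of them (Myh11 and Cnn1). Of the skeletal muscle markers, Myh4 was at 0 in every library.

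The order of the 6 libraries by Sgca was that of their summed cardiomyocyte markers, from TG 1 and TG 3 at the top through the library labelled NTG 1, TG 2 and NTG 3 to NTG 2. By Sgcd the order was nearly that of the fibroblast sum, with NTG 2 and NTG 3 highest and TG 1 and TG 3 at the bottom. It was as nearly the reverse of the order by the cardiomyocyte sum, so it does not single out the fibroblast markers. These orders were compared after the values were seen. The lowest level of Dmd in NTG was also in NTG 2, which had the lowest sum of cardiomyocyte markers, whereas the lowest of all was in TG 1, which had the highest sum. In bulk tissue, fewer cells of a type and less RNA per cell cannot be told apart, and the part of these markers' cell types in the differences of Dmd, Sgca and Sgcd was not tested.

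**Figure D3:**
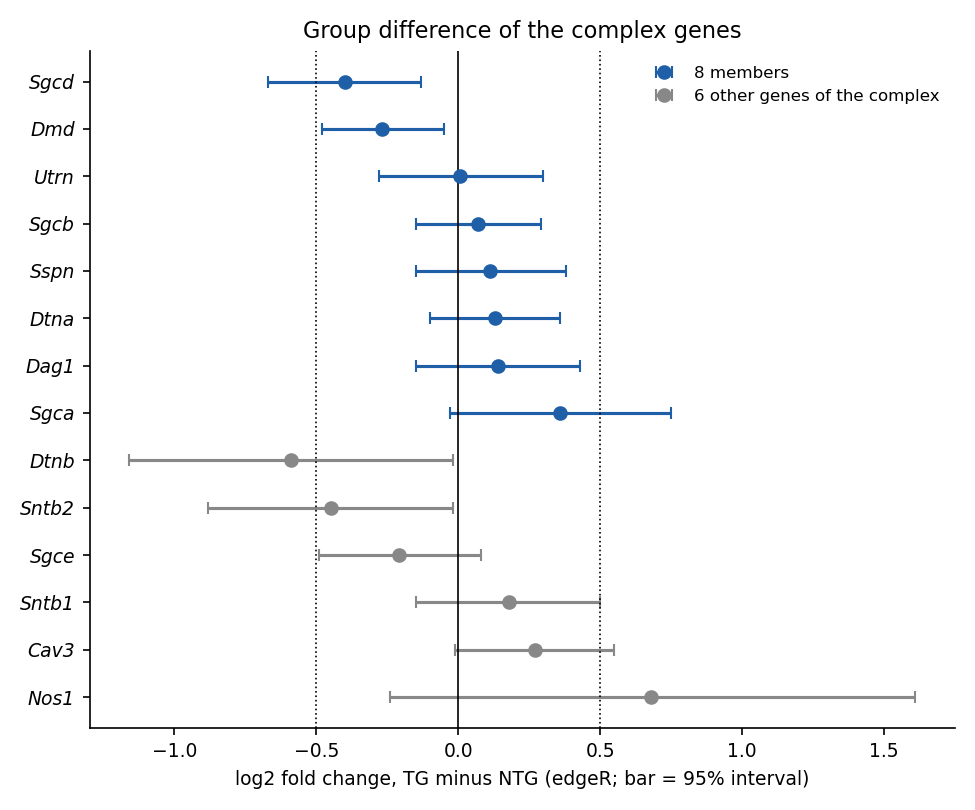
Log2 fold change (TG minus NTG, horizontal axis) with its 95% interval from edgeR for the 8 members (blue) and the 6 other genes of the complex shown (grey); dotted lines mark a log2 fold change of 0.5 in size. The intervals of Sgcd and Dmd lie below 0, those of the other 6 members include 0, and no gene shown passed the threshold on the adjusted p.

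Among other genes of the complex, 6 of 9 listed had enough reads to be tested. At an unadjusted p under 0.05, 0 were higher and 2 were lower (8.83% and 9.76% over all genes, shares that also stand behind the counts of the lists that follow), and none passed the adjusted threshold; their median log2 fold change was -0.015. Cav3, encoding the muscle caveolin, had a log2 fold change of 0.27 (SE 0.12; adjusted p = 0.276 in edgeR), or 0.15 without NTG 2. Nos1, encoding neuronal nitric oxide synthase, had one of 0.68 (SE 0.40; adjusted p = 0.382 in edgeR) at 0.879 to 1.4 CPM in the group means, and was at 0.41 without NTG 3. Sntb2, encoding beta-2-syntrophin, was at 90.6 ± 16.2 CPM and 66.3 ± 14.9 CPM (log2 fold change -0.45, SE 0.19; adjusted p = 0.256 in edgeR). Dtnb, encoding beta-dystrobrevin, had a log2 fold change of -0.59 (SE 0.25; adjusted p = 0.257 in edgeR) at only 2.68 to 4.03 CPM in the group means. Sgcz, Sntg1 and Sntg2 had 0, 2 and 22 counts over all 6 libraries and were not tested.

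The sugar chain of alpha-dystroglycan, which binds laminin, is built by a series of glycosyltransferases, and all 16 genes listed for it were tested. Of these, 1 was higher and 1 was lower at an unadjusted p under 0.05, none passed the adjusted threshold, and the median log2 fold change was 0.0031. Dolk, the dolichol kinase, had a log2 fold change of 0.34 (SE 0.13; adjusted p = 0.224 in edgeR), and Dpm3, a subunit of dolichol-phosphate-mannose synthase, one of 0.17 (SE 0.15; adjusted p = 0.545). Dpm3 was at 0.10 without the library labelled NTG 1 and 0.31 without NTG 2. Dpm2, another subunit of the same enzyme, was at 15.5 ± 0.779 CPM and 12.2 ± 0.0991 CPM (log2 fold change -0.35, SE 0.11; adjusted p = 0.208 in edgeR). B4gat1, which primes the laminin-binding chain, had a log2 fold change of -0.11 (SE 0.08; adjusted p = 0.50 in edgeR).

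Of 12 genes for matrix ligands of dystroglycan, 11 were tested, 1 was higher and 1 was lower at an unadjusted p under 0.05, and the median log2 fold change was -0.003. The largest difference was in Bgn, encoding biglycan, a small proteoglycan made mostly by fibroblasts. Its mean was 2310 ± 798 CPM in NTG and 879 ± 324 CPM in TG, without overlap (log2 fold change -1.40, SE 0.33; adjusted p = 0.196 in edgeR). DESeq2 gave Bgn an adjusted p of 0.000876, and edgeR without the library labelled NTG 1 gave 0.0332. Lama5, encoding the laminin alpha-5 chain, had a log2 fold change of 0.46 (SE 0.17; adjusted p = 0.227 in edgeR), Agrn (agrin) one of 0.18 (SE 0.11; adjusted p = 0.396), and Lamc1 (laminin gamma-1) one of -0.21 (SE 0.17; adjusted p = 0.513). Lama5 was at 0.29 without the library labelled NTG 1, Agrn at 0.07 without TG 2, and Lamc1 at -0.36 without TG 2 and -0.09 without TG 3.

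Costameres are the rib-like sites where the complex and the integrins hold the sarcomere to the membrane. Of 24 costamere and membrane cytoskeleton genes, 22 were tested, 0 were higher and 4 were lower at an unadjusted p under 0.05, and the median was -0.069. Parva, encoding alpha-parvin, was at 103 ± 11.9 CPM and 75.8 ± 9.72 CPM (log2 fold change -0.44, SE 0.13; adjusted p = 0.196 in edgeR, 0.0452 without the library labelled NTG 1). Krt18, an epithelial-type keratin at a low level, had a log2 fold change of -1.5 (SE 0.56; adjusted p = 0.231 in edgeR). Ank2, encoding ankyrin-B, had a log2 fold change of 0.29 (SE 0.14; adjusted p = 0.293 in edgeR), and Csrp3, encoding muscle LIM protein, one of 0.27 (SE 0.14; adjusted p = 0.314). Without NTG 2, Ank2 was at 0.15.

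Where the complex fails, tears in the membrane are patched by annexins, EHD proteins and caveolar coat proteins. All 21 listed genes of membrane repair and caveolae were tested, 1 was higher and 6 were lower at an unadjusted p under 0.05 (8.83% and 9.76% over all genes), and the median was -0.0065. Anxa1 was at 113 ± 35.4 CPM in NTG and 56.6 ± 12.1 CPM in TG, without overlap (log2 fold change -1.0, SE 0.26; adjusted p = 0.196 in edgeR, 0.00742 in DESeq2). Anxa2 was at 271 ± 57.3 CPM and 185 ± 15.5 CPM (log2 fold change -0.55, SE 0.16; adjusted p = 0.197 in edgeR, 0.0497 in DESeq2). Annexins A1 and A2 are also abundant in fibroblasts and macrophages, whose markers were fitted lower in TG as given above, and the part of these cell types in the annexin values was not tested. Ehd1 had a log2 fold change of 0.34 (SE 0.13; adjusted p = 0.233 in edgeR) and Cavin2 one of 0.27 (SE 0.14; adjusted p = 0.312), or 0.15 without NTG 2.

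DESeq2 called 583 genes of the whole table, or 3.95%, and edgeR without the library labelled NTG 1 called 836 of 15136, or 5.52%. None of the 8 complex genes was among them in either fit. Of the pathway genes, DESeq2 called Bgn, Anxa1, Anxa2 and Myof, all lower in TG, and edgeR without the library labelled NTG 1 called these and Parva.

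Levels can be set against each other between genes only per length. By CPM per kb of the gene length in the table, averaged over the 6 libraries, Dag1 was highest at 68.3, and its libraries did not overlap with those of the next gene, Cav3 at 42.6. Sgca (42.5) came after Cav3, and its highest library, 56.7 in TG 1, lay above the lowest of Dag1, 56.3 in NTG 2. Sspn (39.7) and Sgcb (33.8) followed, and each gene from Cav3 to Sgcb overlapped with its neighbour in the order. Utrn was at 12.0, apart from both neighbours. Dmd was at 5.15 and overlapped with Sntb2 at 7.58, while Sgcd at 3.06 overlapped both with Dtna at 3.34 and with Sgce at 2.63, which did not overlap with each other. The length in the table joins the exons of all transcripts, which are long for genes with many forms. With the longest coding transcript instead, a choice made after the data were seen, Sgcd was at 10.3, Dtna at 8.99 and Dmd at 8.23, so the order of these 3 was reversed, while Utrn at 16.6 and Dag1 at 76.6 kept their places relative to them.

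**Figure D4:**
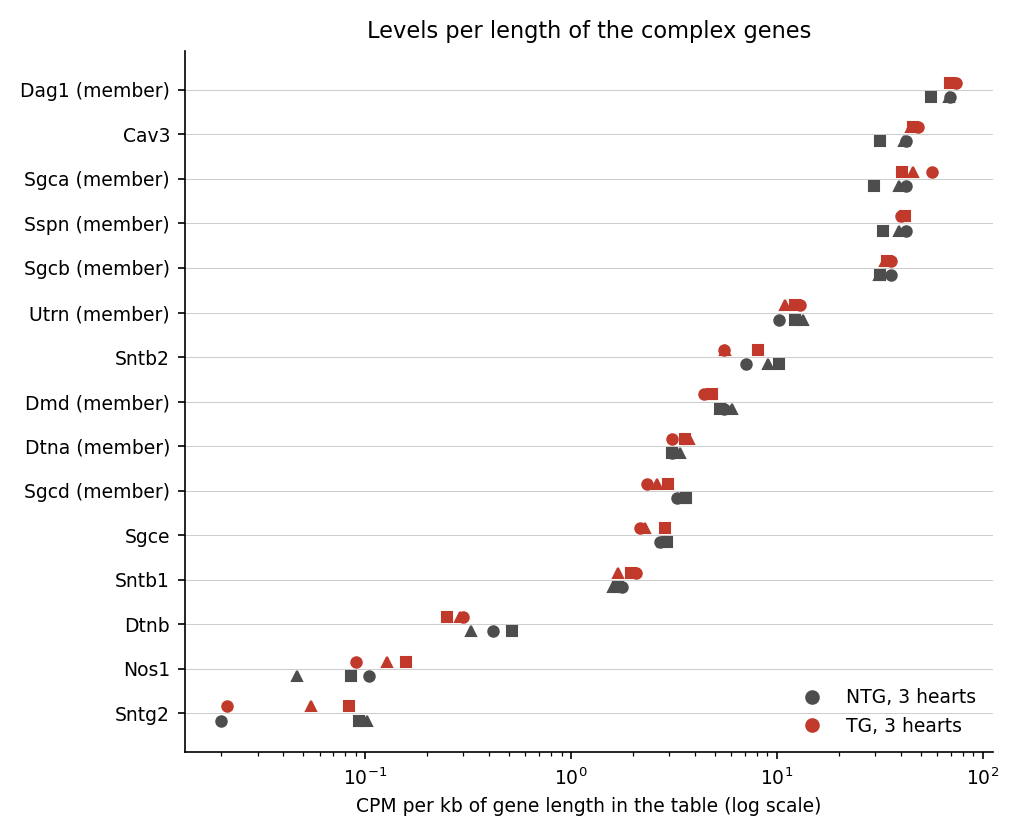
CPM per kb of gene length (horizontal log axis) of the 15 complex genes shown that had reads in every library, each point 1 heart, TG above and NTG below each line. Among the 8 members, Dag1 is highest, Sgca, Sspn and Sgcb follow, and Utrn, Dmd, Dtna and Sgcd lie lower; Sntg1 and Sgcz, with 2 and 0 counts in all, are left out.

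Between members, the pattern over the 6 libraries was most alike for Dag1 and Sspn, whose centred log2 CPM differed by 0.056 (root mean square over 6 libraries). Sgcb and Sspn (0.098), Dag1 and Sgcb (0.10) and Dmd and Sgcd (0.11) came next, and Sgca and Sgcd were farthest apart at 0.49. Among the 13198 other protein-coding genes tested, the nearest to Dmd were Tmem209 and Tmub2 (0.037 each, where Dmd itself spread by 0.15). The nearest to Sgca were Rbpms2 (0.026) and Bzw2 (0.045), and to Sgcd they were Dnajc2 (0.033) and Rcn2 (0.042). Utrn was nearest to Id3 (0.022) and Parp4 (0.029), Dag1 to Abca2 (0.017) and Suds3 (0.018), and Sgcb to Usp15 (0.018) and Gpd2 (0.023). Dtna was nearest to Wdr24 (0.015) and Kat2a (0.018), and Sspn to E2f6 (0.026) and Pfn2 (0.029). With 6 libraries and this many genes, close matches describe these libraries only.

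**Figure D5:**
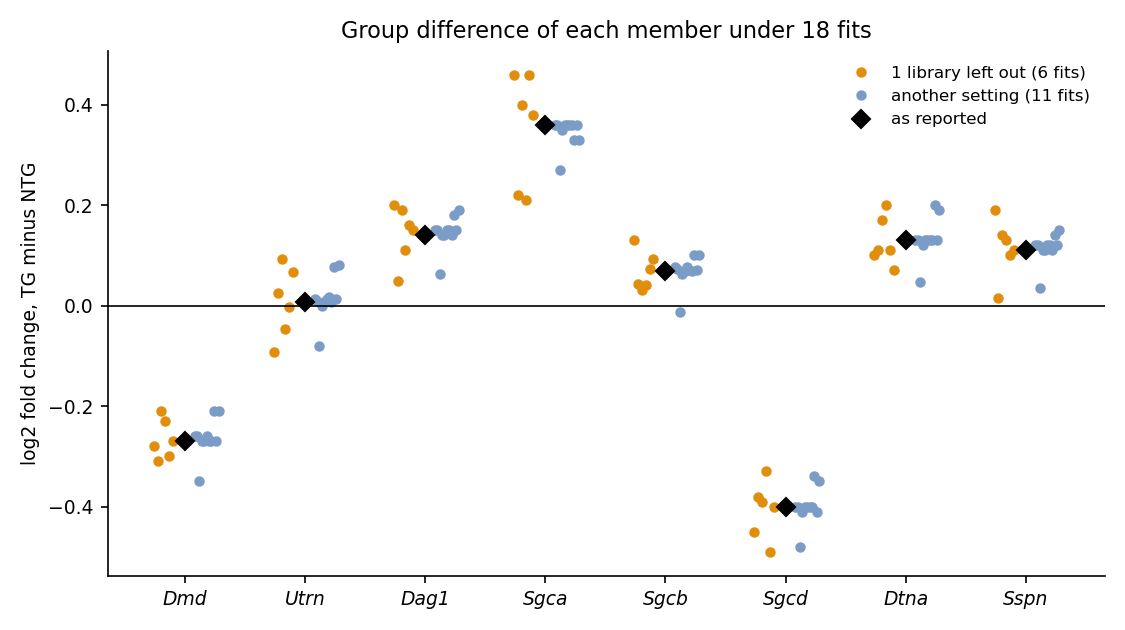
Log2 fold change (TG minus NTG, vertical axis) of each member as reported (diamond), with 1 library left out (6 fits, orange) and under other settings of the analysis (11 fits, blue). Dmd and Sgcd stay below 0 and Sgca, Dag1, Dtna and Sspn above 0 in all 18 fits, Sgcb does in 17, and Utrn lies on both sides of 0.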

How the data were processed

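Gene counts of 6 left ventricular libraries (3 TG, 3 NTG) were analysed. Per the methods, the authors sequenced RNA on an Illumina NovaSeq, cleaned the reads in house, ran StringTie and made the deposited raw count per gene with featureCounts. The submitters' processing notes name HISAT2, DESeq2 and the human build GRCh38. The IDs and coordinates in the table are those of mouse GRCm38, and 54495 of 54532 genes were in GENCODE M21, 98.3% of them with identical coordinates.

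The counts were tested with edgeR 4.0.16 (quasi-likelihood, TMM scaling, low counts filtered by group, no covariate, R 4.3.3), with Benjamini-Hochberg adjustment over all 14774 genes. The common biological coefficient of variation was 18.7%. DESeq2 1.42.0, limma 3.58.1 (voom), other scalings and filters, an offset for length (loess, span 0.3) and fits without each library were alternatives. Ratios were compared by exact permutation. The scripts were tested on simulated data. Same-numbered libraries were not treated as pairs. Promoter windows came from RefSeq (GRCm38.p6).

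The 8 members, the pathway lists and the markers were chosen with earlier results of these data known. Pathway genes were named by rule, as the 2 with the smallest p in each direction of each list. Some planned results of the pathway lists and a share of the sarcoglycans are not reported here.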

Additional observations from a re-analysis of the deposited data

How the results depend on the processing

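None of the 8 complex genes passed the threshold in any of the 17 alternative fits, and the main test called 0 genes of the whole table, with 1305 higher and 1442 lower at an unadjusted p under 0.05 in edgeR. The count of genes called in the whole table was 232 with no low-count filter, 583 with DESeq2 and 1 with limma voom, and it ranged from 0 to 836 over the fits that left out 1 library (836 without the library labelled NTG 1, 7 without TG 2, 1 without TG 3). The cause was not tested.

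Scaling by library size alone shifted all genes by -0.084 in the median. Under it the log2 fold change was -0.081 for Utrn and -0.012 for Sgcb, and the list median was -0.076 for the glycosylation genes. With no low-count filter, Utrn was at -0.00019 and the median of the other complex genes was -0.32, since more genes were tested; it was -0.21 with at least 10 counts in every library, since fewer were. Over the fits that left out 1 library, Utrn ranged from -0.093 to 0.092 and the glycosylation median from -0.056 (without NTG 2) to 0.034. The medians of the other lists also took both signs: -0.092 (without TG 2) to 0.044 (without TG 3) for the other complex genes, -0.12 to 0.12 (same libraries) for the matrix ligands, -0.16 (without TG 2 or the library labelled NTG 1) to 0.0029 (without TG 3) for the costamere genes, and -0.078 (without the library labelled NTG 1) to 0.086 (without NTG 3) for membrane repair. Utrn was at -0.047 without TG 1 and -0.0035 without TG 2. Of 329 alternative values in all (those for the marker lists, without each library, were chosen after the data were seen), 304 kept their side of the threshold or moved by less than the replicate spread, 19 moved by more and 6 reversed.

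With a replicate block, 231 genes were called, and 244 with the block and the length offset, 0 of them complex genes. The deviations of same-numbered libraries had correlations of 0.0807, 0.1733 and -0.2519, and not every library correlated best with its own number. With so few libraries, these values cannot tell whether same-numbered animals shared a litter or day, which the labels do not give. The block left the differences of the ratios at 0.279 and 0.391.

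With 3 libraries in each group, the 95% interval of a member's log2 fold change was narrowest for Dmd (-0.48 to -0.05) and widest for Sgca (-0.03 to 0.75).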

Other observations

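Of the 5 hypertrophy markers listed, all 5 were fitted lower in TG hearts (median log2 fold change -0.52, or -0.81 without TG 2, -0.46 without NTG 3 and -0.41 without TG 3, with 1 of the 5 fitted higher in each of the last 2 fits), with 1 at an unadjusted p under 0.05 in edgeR and 0 past the adjusted threshold; their summed level was 12380 to 17680 CPM in NTG and 7688 to 15300 CPM in TG, with overlap through TG 2. Of the 6 red blood cell markers, 5 were tested and all 5 were lower at an unadjusted p under 0.05 in edgeR, as were 9.76% of all genes (median log2 fold change -1.05). The summed level of the 6 was 1310 to 2247 CPM in NTG and 762.4 to 908 CPM in TG. DESeq2 called 4 of them and edgeR without the library labelled NTG 1 called 5, all lower, where these fits called 3.95% and 5.52% of all genes. The 8 skeletal muscle markers, of which 3 were tested, had a summed level of 514.3 to 905.3 CPM in NTG and 889.1 to 1258 CPM in TG, most of it Ckm, which the heart also expresses.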
